A study of Mus musculus with 9 samples.

Results

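The replication-dependent histone genes were followed in cultured mouse kidney tubule cells. They were taken as the protein-coding genes of the deposited table whose symbol begins with Hist1h, Hist2h, Hist3h or Hist4h, and 59 of the 31167 genes in the table met this rule, which used no measured value. Of these genes 6 encode linker histone H1, 14 encode H2A, 16 encode H2B, 10 encode H3 and 13 encode H4. By cluster, 52 lie in Hist1 on chromosome 13, 4 in Hist2 on chromosome 3, 2 in Hist3 on chromosome 11 and 1, Hist4h4, on chromosome 6. Other histone genes of the Hist2 cluster were not analysed here.

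RNA sequencing was done on primary renal tubular epithelial cells of C57BL/6 mice in 3 groups of 3 libraries. Sham cells were the controls. H/R cells were kept without glucose for 6 h at 1.0% oxygen and then for 18 h in complete medium at normal oxygen, a culture model of ischemia and reperfusion. EGR1OV cells were transfected with a plasmid that expresses Egr1, an immediate early zinc finger transcription factor, from the CMV promoter. No library of cells transfected with an empty plasmid was compared, so transfection and Egr1 cannot be told apart, and no label states that EGR1OV cells went through hypoxia. The labels also do not say whether libraries of a group came from separate cultures or animals, so that p-values measure the spread between these libraries only.

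Libraries held 16183526 to 18383897 reads, as recovered from the values. Levels are in FPKM, a count of fragments divided by exon length and by library size. For Egr1 itself the Sham libraries gave 6.20, 6.91 and 6.09 FPKM, those of H/R 8.57, 7.59 and 7.48, and those of EGR1OV 45.7, 42.2 and 40.1. Of 15 tubule markers 14 were in the table, and 10 of them reached a mean of 0.5 FPKM. Umod was at 0 in all 9 libraries and Slc34a1, Slc12a1 and Slc12a3 were under 0.5 FPKM in each group. These markers of single tubule segments were thus absent or nearly so. Aqp1, also on the list, was under 0.5 FPKM only in EGR1OV, and the other markers in the table reached 0.5 FPKM in each group. The epithelial and tubule markers Cdh1, Epcam and Pax8 had Sham means of 86.2, 76.2 and 13.1 FPKM. One short RNA gene, Gm23935, ranged from 1494 to 21700 FPKM between libraries, also within groups, but took at most 0.124% of the reads of a library.

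Replication-dependent histone genes supply the H1, H2A, H2B, H3 and H4 proteins that package newly made DNA, and their mRNAs accumulate in S phase. Most of their mRNAs carry no poly(A) tail. They end just after a short stem-loop that is bound by the stem-loop binding protein Slbp, and Npat activates their transcription. Some of these genes also give polyadenylated mRNA, which is known for H1 and H2B genes of differentiated cells, and replacement histones such as H2afz are encoded by separate genes with polyadenylated mRNA that is made throughout the cell cycle. Whether the libraries were selected for poly(A) is not given in the sources used here, so levels between these genes are levels in these libraries.

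The stem-loop and the poly(A) signal are shown beside the levels described next, and a relation between them was not tested. The stem-loop was searched by its usual consensus of 16 bases, with GG and CT fixed in the left arm, T at the first and the third base of the loop, AG and CC in the right arm and the other bases free, on the sense strand after the coding sequence of the GENCODE M21 transcripts. It was found in 43 of the 59 genes. Capitals mark the arms of the stem and lower case the loop. The most common form was held by 23 genes, among them Hist1h1c, Hist1h3b, Hist1h2ad and Hist1h3d. A form of the H4 genes was held by 7, among them Hist1h4m, Hist1h4h and Hist1h4n, and another by 6 genes, while Hist1h4i and Hist2h4 shared a form of their own.
Hist1h1c, Hist1h3b, Hist1h2ad, Hist1h3d: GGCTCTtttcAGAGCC
Hist1h4m, Hist1h4h, Hist1h4n: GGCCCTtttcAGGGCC
Hist1h3c, Hist1h2bb: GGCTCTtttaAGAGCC
Hist1h4i, Hist2h4: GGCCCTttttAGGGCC

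The 2 genes with the highest levels both held AATAAA, the hexamer of the poly(A) signal, which is in capitals here. The annotated transcript of Hist1h2bc, whose model is spliced, had no match to the stem-loop letters, and its hexamer lay 441 bases before the end of the transcript. In Hist1h1c the hexamer lay 20 bases before the end of the transcript, and the transcript ran 840 bases past its stem-loop.
Hist1h2bc: atatatAATAAAtgtcat
Hist1h1c: gcttctAATAAAaagcgt

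AATAAA was present after the coding sequence of 18 genes, with a median of the mean levels of 0.694 FPKM, and absent from 41, with a median of 0.496. The highest mean without it was 13.3 FPKM, against 65.8 FPKM with it. The hexamer was counted at any distance from the transcript end, so a long model can hold it by its length alone. The ranges overlapped, several gene models end at the stop codon, and a model that ends early can hold no match. The 2 groups of genes are therefore described and not tested.

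Over the 9 libraries the mean level was 65.8 FPKM for Hist1h2bc (ENSMUSG00000018102, chr13:23684199-23692908, plus strand), an H2B gene, and 65.1 FPKM for Hist1h1c (ENSMUSG00000036181, chr13:23738808-23740367, plus strand), a linker histone gene. Together they made up 62.3% of the summed FPKM of the 59 genes and 72.4% of their reads. Next came Hist1h3b at 13.3, Hist1h4m at 9.13 and Hist1h4h at 9.01 FPKM. Levels then fell through Hist1h4i at 4.91, Hist1h2bg at 4.70, Hist1h2ab at 3.91, Hist1h2bj at 2.61, Hist2h2be at 2.54, Hist1h3d at 1.95 and Hist1h2ad at 1.88 FPKM. Hist1h2bc and Hist1h1c changed places between groups, Hist1h4m and Hist1h4h likewise, and their ranges over libraries overlapped, whereas Hist1h3b lay below the 2 highest and above Hist1h4i in every library. Positions are those of GRCm38.

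**Figure D1:**
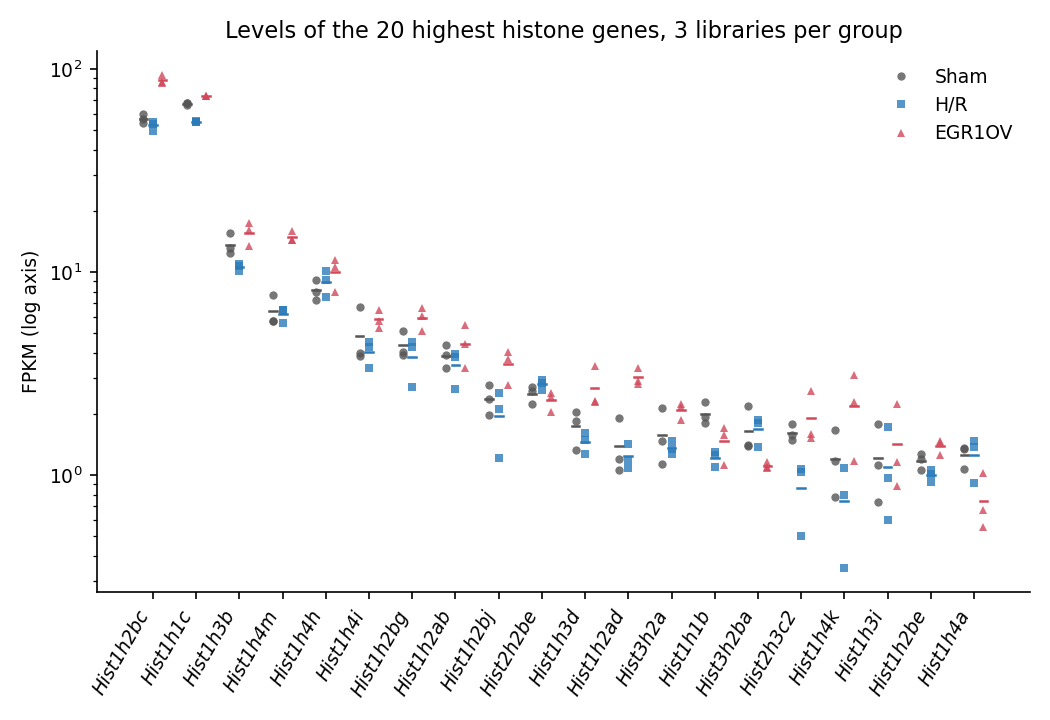
FPKM on a log axis for the 20 histone genes with the highest means, with a point for each of the 3 libraries of Sham, H/R and EGR1OV and a bar at the group mean. Hist1h2bc and Hist1h1c stand apart at about 65 FPKM, and most other genes lie under 5 FPKM with wide scatter between libraries.

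Only 5 genes had a mean of at least 5 FPKM. A total of 42 were above 0 in every library, 14 did not exceed 3 reads in any library, and the H2A gene Hist1h2ah was at 0 in all 9, where up to 3 reads per library cannot be told from 0. Genes entered the test if their mean reached 0.5 FPKM. This held for 30 of the 59, which are not the whole family. They comprised 4 H1, 3 H2A, 8 H2B, 7 H3 and 8 H4 genes. Hist1h3h at 0.560 FPKM was the lowest gene inside this limit, and Hist1h2ac at 0.499 and Hist1h2bf at 0.496 lay just outside it. H2A was the family with the lowest levels, with 9 of its 14 genes at no more than 3 reads in any library. The 29 genes that were not tested made up 2.80% of the summed FPKM. Their sum was 4.45 to 5.52 FPKM in Sham, 5.15 to 6.01 in H/R and 5.51 to 8.15 in EGR1OV, and the 3 ranges overlapped.

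In 11 places an H2A and an H2B gene start head to head within 500 bases of each other, so that a single stretch of DNA holds both promoters. The partners are named here for their place and not for their level. The level differed widely within such pairs: Hist1h2bc, at 65.8 FPKM, faced Hist1h2ac, at 0.499. Hist1h2bg at 4.70 faced Hist1h2ae at 0.344, Hist2h2be at 2.54 faced Hist2h2ac at 0.0120, and Hist1h2ad at 1.88 faced the H2B gene Hist1h2bf at 0.496. In none of the 11 pairs did both genes pass the limit of 0.5 FPKM, so the change of the partners could not be compared.

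Paralogs share much of their sequence, and the way reads were assigned to them is not given in the sources used here. Each transcript was therefore cut into all of its 100-base windows, and those also found in another gene were counted. The share was 88.1% for Hist1h4m, 80.7% for Hist1h4n, 63.6% for Hist1h2ad, 56.6% for Hist1h3b, 25.4% for Hist1h2bc, 20.4% for Hist1h3d and 5.07% for Hist1h1c, and no window of Hist1h1b was shared. In 21 genes at least 50% of windows were shared, and values of these genes may hold reads of their copies. The H2A gene Hist1h2ad also overlaps a gene on the opposite strand, and reads of the 2 cannot be told apart if strand was not used in counting.

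**Figure D2:**
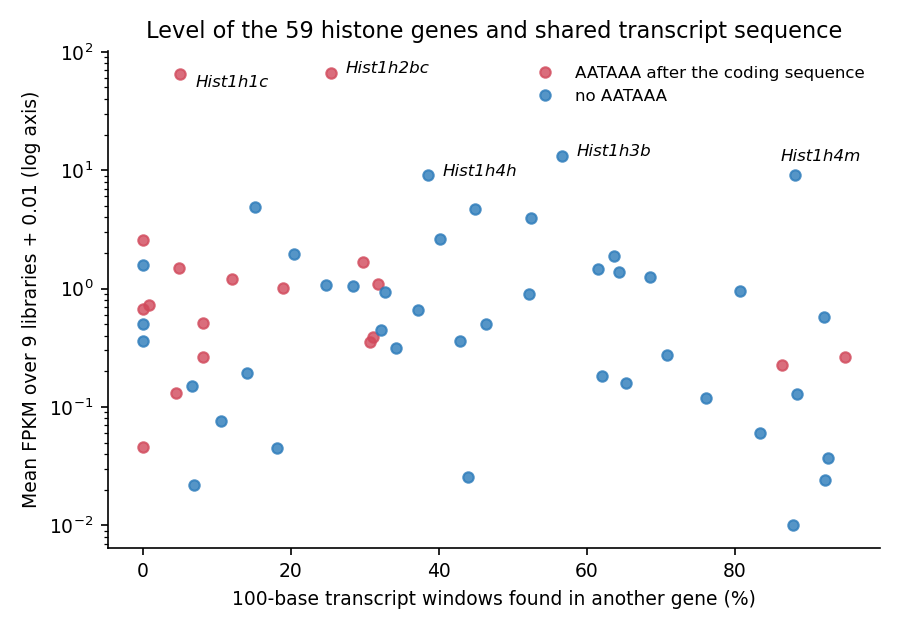
Mean FPKM over 9 libraries plus 0.01, on a log axis, against the percent of 100-base transcript windows found in another gene, with a point for each of the 59 histone genes coloured by whether AATAAA follows the coding sequence. Hist1h1c and Hist1h2bc are high with 5.07% and 25.4% of windows shared, and Hist1h4m is the highest of the genes with over 80% shared.

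The first comparison, EGR1OV against Sham, asks which genes differ when Egr1 is raised. Summed over the 59 genes, histone mRNA came to 195, 205 and 195 FPKM in Sham and to 256, 256 and 267 FPKM in EGR1OV, 1.31 times the Sham mean (198 ± 5.69 against 259 ± 6.38, SD, n = 3). The groups did not overlap. The ratio of means was 1.54 for H4, 1.48 for H2B, 1.40 for H2A, 1.19 for H3 and 1.09 for H1, and 1.32 for the 57 genes without the 2 highest. The H1 and H2B ratios mostly follow Hist1h1c and Hist1h2bc and need not hold for other members. In Sham Hist1h1c made up 67.1 of the 71.3 FPKM of H1, and Hist1h2bc 56.7 of the 72.6 FPKM of H2B. These sums are descriptions without a test, and in such bulk samples a change in the number of cells in S phase and a change in histone RNA per cell cannot be told apart.

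By limma, 5 of the 30 tested histone genes passed both an adjusted p of 0.05 and the fold threshold of 1.3, which is meant by called here, all 5 higher in EGR1OV, which is 16.7% of them. Over all 13985 genes tested 16.4% were called, 9.87% higher and 6.51% lower, so the count of called histone genes was near the background. The 5 were the H4 genes Hist1h4m and Hist1h4n, the H2A gene Hist1h2ad, the H2B gene Hist1h2bc and the H3 gene Hist1h3d, and no H1 gene was called. Over the 30 genes 22 log2 changes were above 0, against 53.2% of all genes, and their median was 0.18 on the log2(FPKM + 1) scale, against 0.02 over all genes. The groups did not overlap for 10 of the 30, fewer in proportion than the 55.7% of all genes, 7 being higher and 3 lower in EGR1OV (31% and 24.6% of all genes). With no fold threshold 8 of the 30 passed, against 45.9% of all genes.

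Hist1h4m (ENSMUSG00000069306, chr13:21811746-21812147, plus strand), which encodes H4, had the largest change on the log2(FPKM + 1) scale, although Hist1h4n was ahead by the ratio of means (2.57 against 2.32), with a pseudocount of 0.1 and with voom. It was at 7.72, 5.71 and 5.73 FPKM in Sham, on 51, 40 and 38 reads, and at 14.4, 14.3 and 15.8 FPKM in EGR1OV, on 96, 94 and 107 reads. Every EGR1OV library lay far above every Sham library. On the log2(FPKM + 1) scale it rose by 1.11 (SE 0.101, limma adjusted p = 1.91e-05).

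Hist1h2bc, the H2B gene with the most reads, was at 53.8, 60.04 and 56.4 FPKM in Sham and at 85.0, 86.2 and 92.8 FPKM in EGR1OV, again without overlap. It rose by 0.62 on the log2 scale (SE 0.0530, limma adjusted p = 1.22e-05). With 1022 to 1805 reads per library in these 2 groups it is the rise with the most reads behind it. Its mean went from 56.7 FPKM to 87.99 FPKM.

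Hist1h2ad (ENSMUSG00000071478, chr13:23574381-23574952, plus strand) was at 1.91, 1.203 and 1.06 FPKM in Sham, on 10 to 18 reads, and at 3.37, 2.89 and 2.80 FPKM in EGR1OV, on 27 to 32 reads. The groups were apart, with the first Sham library nearest to EGR1OV. It rose by 0.76 (SE 0.127, limma adjusted p = 0.000988). As to the calls of these 3 genes, Hist1h4m was called in all 20 alternatives and Hist1h2bc in all but that with a 2-fold threshold. Hist1h2ad was called in 18 of 19, again all but the 2-fold threshold, and was not tested at a mean of at least 5 FPKM.

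The other two rises rest on few reads or on single libraries. Hist1h4n was at 0.283, 0.534 and 0.704 FPKM in Sham, which is 2, 4 and 5 reads, and at 1.54, 0.854 and 1.52 FPKM in EGR1OV, which is 11, 6 and 11 reads. The H/R libraries of this gene, at 1.01, 0.633 and 1.44 FPKM, overlapped EGR1OV. It rose by 0.61 (SE 0.179, limma adjusted p = 0.0204), and the call was lost without the first Sham, the first EGR1OV or the third EGR1OV library, where limma adjusted p lay between 0.0683 and 0.0718, and without the filter on low values (adjusted p = 0.0567).

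Hist1h3d was at 1.85, 1.33 and 2.04 FPKM in Sham and at 3.42, 2.30 and 2.28 FPKM in EGR1OV, so that the highest Sham library lay just under the lowest EGR1OV library. It rose by 0.42 (SE 0.136, limma adjusted p = 0.0321). This call was lost without the first or second Sham or the first EGR1OV library, where adjusted p lay between 0.0528 and 0.109, and also without the filter, with quantile normalization and when only the 2 groups were fitted.

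Among genes not called, Hist1h1c differed little but with small error. It was at 66.0, 67.8 and 67.5 FPKM in Sham and at 73.8, 73.7 and 73.1 FPKM in EGR1OV, a log2 change of 0.13 (SE 0.0215, limma adjusted p = 0.000914) that is under the 1.3-fold threshold. Hist1h4h and Hist1h3b had changes of 0.26 and 0.18 with adjusted p of 0.158 and 0.163, and Hist1h4i, Hist1h2bg and Hist1h2bj, also above 0, did not pass either. Hist1h4a, named after its values were seen, had a change of -0.37 (SE 0.128, limma adjusted p = 0.0390) just under the 1.3-fold threshold. With median-ratio scaling it was called lower, giving 5 genes higher and 1 lower, and with quantile normalization 4 were higher and 1 lower.

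**Figure D3:**
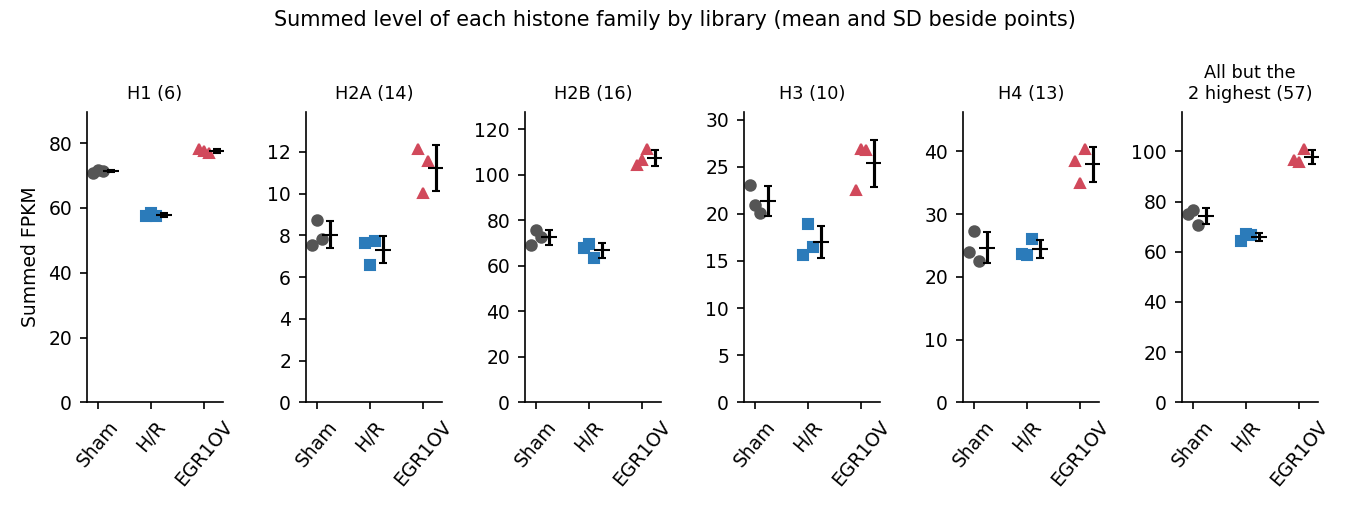
Summed FPKM of each histone family, with the number of genes in parentheses, and of all genes but Hist1h2bc and Hist1h1c, with a point for each library and the mean with SD beside the 3 points of each group. EGR1OV libraries lie above Sham for H1, H2A, H2B, H4 and the 57 genes without the 2 highest, and H/R libraries lie below Sham for H1 and H3.

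Levels of other cell types moved along with EGR1OV. The sum of 10 leukocyte markers was 145 to 150 FPKM for Sham, 122 to 128 for H/R and 39.3 to 46.4 for EGR1OV, with Ptprc and Cd79a under 0.5 FPKM in each group. The sum of 14 tubule markers was 1929 to 1966, 1785 to 1863 and 1270 to 1377 FPKM, and that of 7 endothelial markers 10.7 to 10.97, 10.9 to 11.4 and 7.58 to 8.20 FPKM. That of 7 fibroblast markers was 32.8 to 34.5, 39.3 to 40.6 and 37.9 to 42.9 FPKM. Their part in the histone values was not tested.

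The promoters of Hist1h4m, Hist1h4n and Hist1h2ad, which rose in EGR1OV, are shown because the overexpressed protein binds DNA. That of Hist1h3d is not printed. RefSeq promoters of GRCm38.p6, from 250 bases before to 50 after the start, were matched for 54 of the 59 genes and for 4 of the 5 called genes, Hist1h2bc not being among them. Capitals mark TATAAA and CCAAT, letters that TBP and NF-Y can bind, on either strand, so that ATTGG is CCAAT on the other strand. They are marked at any place in the window, so a mark does not locate binding. In Hist1h4m and Hist1h4n the marked TATAAA lies far before the start. In Hist1h2ad it lies after the annotated start, within the last 50 bases. The promoters of Hist1h4m and Hist1h4n were identical at 298 of 299 aligned bases.
Hist1h4m, chr13:21811496-21811795, plus strand: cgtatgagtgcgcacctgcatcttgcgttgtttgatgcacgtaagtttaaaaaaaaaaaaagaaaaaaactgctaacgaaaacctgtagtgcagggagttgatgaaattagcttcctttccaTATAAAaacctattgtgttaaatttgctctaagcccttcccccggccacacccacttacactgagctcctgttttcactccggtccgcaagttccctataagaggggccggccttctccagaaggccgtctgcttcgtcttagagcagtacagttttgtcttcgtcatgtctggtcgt
Hist1h4n, chr13:21832148-21832447, minus strand: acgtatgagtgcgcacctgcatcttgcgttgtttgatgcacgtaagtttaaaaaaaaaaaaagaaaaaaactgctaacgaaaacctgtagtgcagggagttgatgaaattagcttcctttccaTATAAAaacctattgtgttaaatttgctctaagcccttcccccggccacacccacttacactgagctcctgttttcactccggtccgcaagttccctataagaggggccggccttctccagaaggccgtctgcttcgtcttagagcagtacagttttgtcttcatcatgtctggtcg
Hist1h2ad, chr13:23574131-23574430, plus strand: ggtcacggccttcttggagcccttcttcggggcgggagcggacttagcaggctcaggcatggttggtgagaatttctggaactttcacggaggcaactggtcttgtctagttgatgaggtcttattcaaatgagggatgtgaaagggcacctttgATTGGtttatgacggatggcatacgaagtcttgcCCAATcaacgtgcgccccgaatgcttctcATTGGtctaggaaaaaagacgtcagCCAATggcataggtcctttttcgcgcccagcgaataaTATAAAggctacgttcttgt

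Searched on both strands, TATAAA was present in 31 of the 54 promoters, 57.4%, against 13.6% of all 32817 promoters of that length. CCAAT was present in 45, 83.3%, against 37.4% of all promoters, but in only 3 of 12 H4 promoters. The octamer ATTTGCAT, the site of Oct1, was present in 11, 20.4%, against 1.74%, and these were 6 H2A and 5 H2B promoters. GCGNGGGCG, the letters of an Egr1 site, was present in 2 of the 54, 3.70%, against 5.56% of all promoters, and in none of the 4 matched promoters of genes called in EGR1OV against Sham. The 2 genes were Hist1h4f, which was not tested, and Hist2h3c2, which was called higher in EGR1OV against H/R, as given with that comparison, but not against Sham. As only 5.56% of all promoters held the Egr1 letters, their absence from 4 promoters was likely in any case. It does not show that the called genes lack Egr1 sites. The site that the paper reports Egr1 to bind in the Sox9 promoter does not match these letters, so the search can miss sites. These matches are descriptions of these windows and do not locate binding.

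The second comparison, H/R against Sham, asks what hypoxia and reoxygenation changed. Summed histone mRNA was at 172, 177 and 171 FPKM in H/R, below the lowest Sham library, with a ratio of means of 0.876 (173 ± 3.29 against 198 ± 5.69, SD, n = 3). The ratio was 0.798 for H3, 0.810 for H1, 0.911 for H2A, 0.921 for H2B and 0.990 for H4. It was 0.889 without the 2 highest genes. Here too the H1 ratio mostly follows Hist1h1c, which made up 54.8 of the 57.8 FPKM of H1 in H/R.

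By limma 2 of the 30 genes were called, here with a fold threshold of 1.2, both lower and both linker histones, which is 6.67% against 4.25% of all genes (1.6% higher and 2.65% lower). Of the 30 log2 changes 4 were above 0, against 40.1% of all genes, and 26 were below 0. The median was -0.13 against -0.03 over all genes. The groups did not overlap for 7 genes, all lower in H/R, 23.3% of those tested, against 33.6% of all genes, of which 21.8 points were lower.

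Hist1h1c, the H1 gene with the highest level in these libraries, was at 54.4, 55.4 and 54.7 FPKM in H/R, on 1373 to 1588 reads, and at 66.0, 67.8 and 67.5 FPKM in Sham, on 1693 to 1843 reads. The gap between the groups was several times the range within either. It fell by 0.29 on the log2 scale (SE 0.0215, limma adjusted p = 0.000185). The change is small: it was 0.25 lower with median-ratio scaling and 0.26 lower with quantile normalization, both under the 1.2-fold threshold, with adjusted p of 0.000399 and 0.000459.

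Hist1h1b (ENSMUSG00000058773, chr13:21779883-21780625, minus strand), an H1 gene with no shared window, was at 2.29, 1.93 and 1.79 FPKM in Sham, on 22 to 28 reads. In H/R it was at 1.25, 1.10 and 1.29 FPKM, on 15 to 17 reads, below every Sham library, and in EGR1OV at 1.70, 1.56 and 1.12 FPKM, also below every Sham library. It fell by 0.44 in H/R (SE 0.102, limma adjusted p = 0.0262), but not past the test without the first or second Sham library or without any single H/R library, where adjusted p lay between 0.0573 and 0.0835. The call was also lost without the filter on low values (adjusted p = 0.0798) and with voom on recovered reads (adjusted p = 0.0960).

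Hist1h3b was at 10.1, 10.9 and 10.6 FPKM in H/R against 15.5, 13.0 and 12.3 in Sham, without overlap, yet its log2 change of -0.34 (SE 0.0986, limma adjusted p = 0.0580) did not pass. Hist1h2bc, with 53.7, 54.8 and 49.5 FPKM in H/R, overlapped Sham and had a change of -0.11 (SE 0.0530, adjusted p = 0.230). Hist1h4m, which rose in EGR1OV, was at 6.46, 6.49 and 5.61 FPKM in H/R, inside the Sham range but for its lowest library, with a change of -0.03 (SE 0.101, adjusted p = 0.886) whose sign turned with median-ratio scaling, with quantile normalization and without the first Sham or the third H/R library. These 2 comparisons share the Sham libraries, so that a high or low Sham library moves both.

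**Figure D4:**
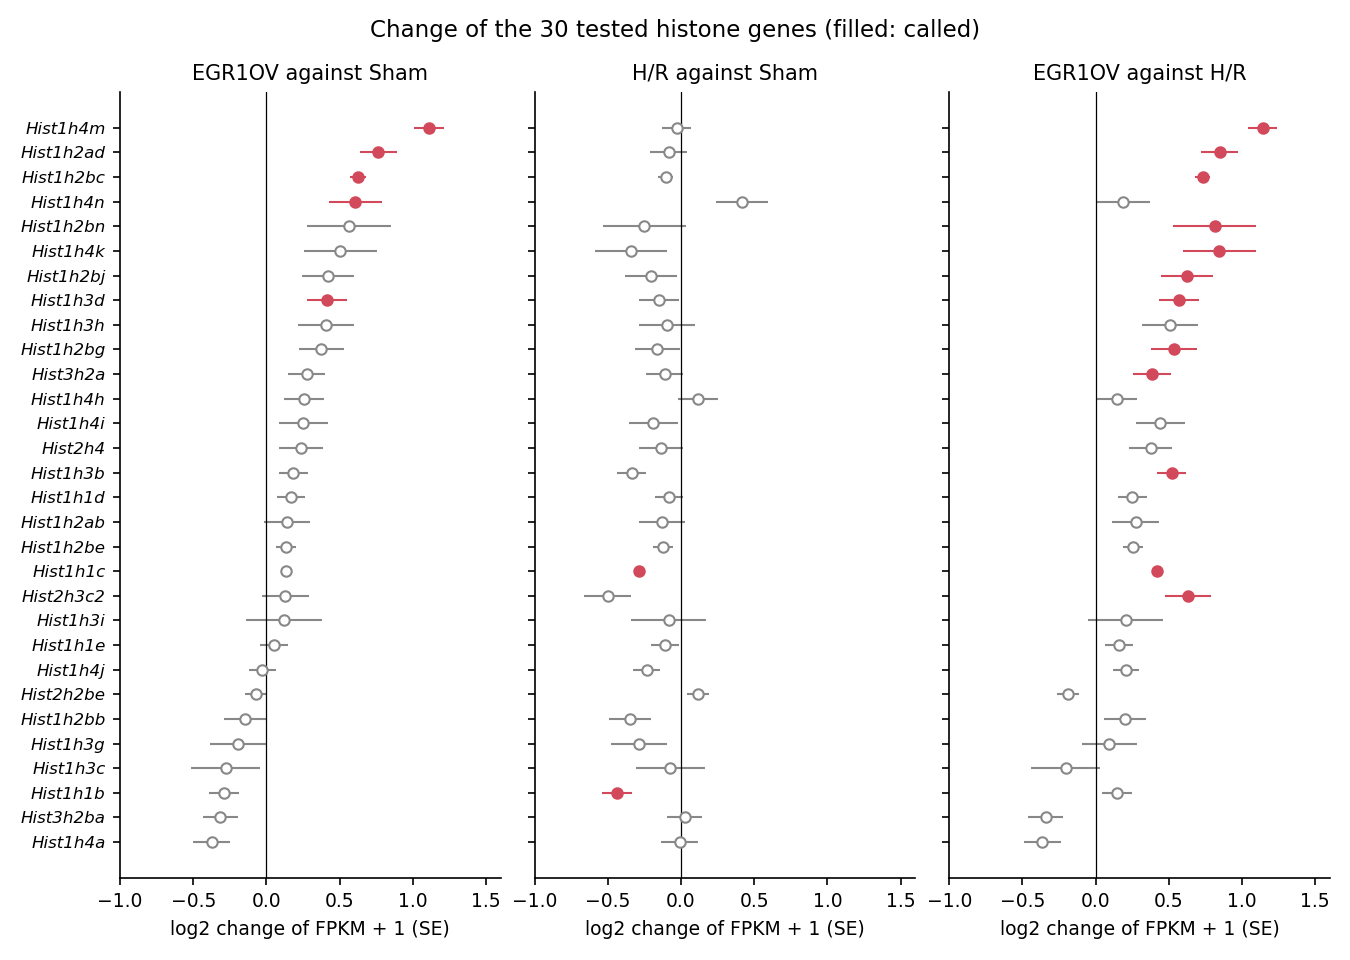
log2 change of FPKM + 1 with its SE for the 30 histone genes tested, in order of the change in EGR1OV against Sham, in 3 panels for the 3 comparisons. Filled points are the 5, 2 and 12 genes called; most open points in the H/R panel lie just left of 0.

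EGR1OV was also compared with H/R, where Sham libraries enter through the shared estimate of the spread but not through the means. Of the 30 genes 12 were called, all higher in EGR1OV, which is 40% against 18.9% of all genes (11.9% higher and 6.94% lower). The median change was 0.32 against 0.05 over all genes, and 26 of the 30 were above 0, against 58.6% of all genes. The groups did not overlap for 18 genes, 60% against 58.6% of all genes, and 16 of them were higher in EGR1OV, against 36.6% of all genes. Beside Hist1h4m at 1.14, Hist1h2ad at 0.85, Hist1h2bc at 0.73 and Hist1h3d at 0.57, the rises were those of the H4 gene Hist1h4k at 0.85, the H2B genes Hist1h2bn at 0.81, Hist1h2bj at 0.63 and Hist1h2bg at 0.54, the H3 genes Hist2h3c2 at 0.63 and Hist1h3b at 0.52, Hist1h1c at 0.42 and the H2A gene Hist3h2a, named after its values were seen to complete the 12, at 0.39.

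Of these, Hist1h3b was at 13.4, 15.99 and 17.4 FPKM in EGR1OV, above all 3 H/R libraries (SE 0.0986, limma adjusted p = 0.00184). Hist1h1c had the smallest error, with 54.4 to 55.4 FPKM in H/R and 73.1 to 73.8 in EGR1OV (SE 0.0215, limma adjusted p = 3.38e-07). By family 4 of 8 H2B, 3 of 7 H3, 2 of 3 H2A, 2 of 8 H4 and 1 of 4 H1 genes were called. The H2A gene Hist3h2a overlaps Trim17 on the same strand. With 29.8% of its windows found in Trim17, its values may hold reads of that gene. Hist1h2bn rests on 3, 1 and 4 reads in H/R and 11, 11 and 6 in EGR1OV, and Hist1h4k on 4, 2 and 6 and on 16, 6 and 12. Some of these H/R values are not above the floor of 3 reads, and 52.1% and 64.3% of their windows were shared. The call of Hist1h2bn was lost without any single H/R library and without the first or second EGR1OV library, with limma adjusted p between 0.0525 and 0.122. It was lost as well with a pseudocount of 0.1 (adjusted p = 0.0543), without the filter (0.0979), with quantile normalization (0.0536) and with the replicate block (0.0575). The call of Hist1h4k was lost without the filter (adjusted p = 0.0530) and without the second H/R or the first EGR1OV or the third EGR1OV library, with adjusted p between 0.0538 and 0.0657. Hist1h2bj was lost without the first EGR1OV library (adjusted p = 0.0542) and Hist1h2bg without that library (adjusted p = 0.0604) or, by its fold, without the first H/R library. Median-ratio scaling gave 10 genes higher and 1 lower, and quantile normalization 9 higher and 2 lower, and under both Hist1h1c fell short of the 1.3-fold threshold.

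The genes that act on histone mRNA and histone protein were examined as lists. Slbp, the stem-loop binding protein, had means of 3.76 ± 0.0789, 3.14 ± 0.155 and 3.52 ± 0.171 FPKM (SD, n = 3) in the order Sham, H/R, EGR1OV. Its log2 change was -0.20 in H/R (limma adjusted p = 0.0310), under the 1.2-fold threshold, and -0.07 in EGR1OV (adjusted p = 0.248). Npat had 8.21 ± 0.0634, 7.59 ± 0.193 and 7.85 ± 0.153 FPKM in the same order, with changes of -0.10 and -0.06 (adjusted p = 0.0855 and 0.198). Neither passed in either comparison.

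Of 16 tested genes of histone mRNA processing none was called by limma in EGR1OV or in H/R against Sham, while voom on recovered reads called 3 and 0. Of all genes 16.4% and 4.25% were called by limma. The share of all genes called by voom is not given here, so the voom counts have no background beside them. By limma 9 and 5 of the 16 had an unadjusted p under 0.05. Of all genes 45.9% and 11.7% passed even an adjusted p of 0.05 with no fold threshold. That measure is stricter and the share at an unadjusted p is not given, so these counts cannot be read as above the background. Against H/R, 1 of the 16 rose in EGR1OV, where 11.9% of all genes were called higher. This was Coil, which encodes coilin, by 0.44, a call that was lost with quantile normalization and without the third H/R library. The medians were 0.08 in EGR1OV and -0.09 in H/R against Sham.

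Of 11 replacement histones none was called by limma in EGR1OV against Sham, with 6 at an unadjusted p under 0.05 and 1 called by voom. Of all genes 16.4% were called by limma, and 45.9% passed an adjusted p of 0.05 with no fold threshold. The latter is stricter than an unadjusted p, so the count of 6 cannot be read as above the background. The share of all genes called by voom is not given here. In H/R 2 fell, against 2.65% of all genes called lower. These were H1f0, a linker histone of resting cells, by 0.41 and H2afz, the H2A.Z gene, by 0.36. H2afz was at 78.2 ± 2.26 FPKM in Sham and 60.9 ± 1.17 in H/R, and H1f0 at 34.8 ± 1.69 and 26.0 ± 0.421 (SD, n = 3). In Sham, H2afz thus lay above Hist1h2bc and Hist1h1c and H1f0 below them. Against H/R, H1f0 rose in EGR1OV by 0.47.

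Of 20 histone chaperones 1 rose in EGR1OV against Sham, the H3.3 chaperone Daxx, by 1.91 (SE 0.0505, limma adjusted p = 2.65e-09), from 11.6 ± 0.603 to 46.4 ± 2.36 FPKM (SD, n = 3). Of all genes 9.87% were called higher in that comparison. In H/R 4 fell, against 2.65% of all genes called lower. Chaf1b fell by 0.41 and Chaf1a by 0.36, subunits of the CAF-1 complex that places H3 and H4 on new DNA. Asf1b, which hands them on, fell by 0.37. Mms22l, a replication fork factor, fell by 0.30, a call that was lost without the first Sham or the third H/R library. Against H/R 5 rose in EGR1OV, where 11.9% of all genes were called higher, led by Daxx, Chaf1b, Chaf1a and Hjurp. The call of Hjurp was lost with median-ratio scaling and that of Hjurp and Chaf1a with quantile normalization.

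Of 23 tested S-phase genes 16 fell in H/R, against 2.65% of all genes called lower, and the median of the list was -0.34. Mcm5 and Mcm2, subunits of the replicative helicase, fell by 0.58 and 0.49, the transcription factor E2f1 by 0.56 and the cyclin Ccne1 by 0.47. In EGR1OV against Sham only 1 rose, Mcm6, by 0.69 (SE 0.0399, limma adjusted p = 8.10e-07), with a median of 0.05 over the list. Of all genes 9.87% were called higher there. Against H/R 10 rose, where 11.9% of all genes were called higher, led by Mcm6 at 0.91, Mcm5 at 0.84, Cdt1 at 0.74 and E2f1 at 0.73. Set side by side, the medians of the histone genes were 0.18 in EGR1OV and -0.13 in H/R, and those of the S-phase genes 0.05 and -0.34, each against the same Sham libraries. The medians over all genes are given with each comparison above.

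**Figure D5:**
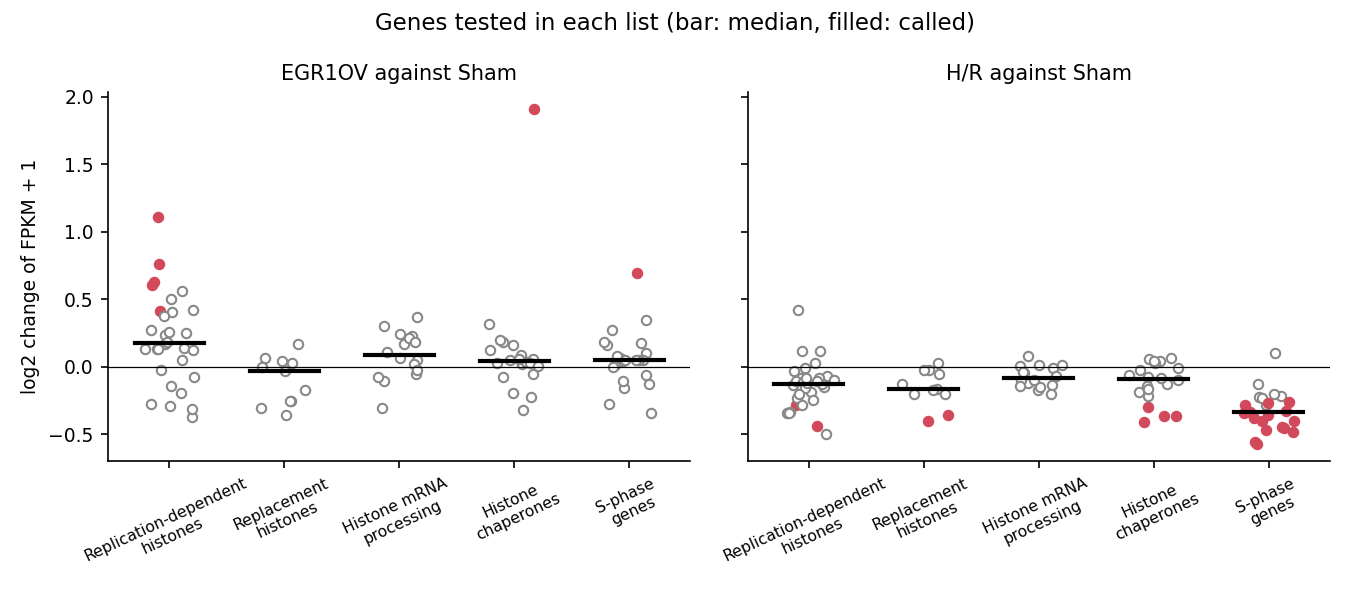
log2 change of FPKM + 1 against Sham for the genes tested in 5 lists, with EGR1OV on the left and H/R on the right, filled where called, and a bar at the median of each list. The medians in EGR1OV are 0.18 for the replication-dependent histones and 0.05 for S-phase genes, and in H/R -0.13 and -0.34.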

How the data were processed

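The authors deposited FPKM values, 1 column per library without pooling. The submitters' processing notes name HISAT2 2.1.0, Bowtie2 2.2.3, TopHat2 and mm9 without a role, yet all 59 histone genes had the positions of GENCODE M21 (GRCm38). The counting tool is not given in the sources used here. Low values were multiples of a fixed step, from which whole reads were recovered with exon lengths of GENCODE M21. Of 162961 values of 1 to 1000 reads, 94.0% were whole within 0.02 reads, as were all 426 histone values above 0 and under 1000 reads. The floor was 3 reads, for counting error only.

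The test used log2(FPKM + 1), a scale that understates changes of low genes, in 1 fit of all 9 libraries with limma 3.58.1 (R 4.3.3, lmFit, eBayes with trend, two-sided, Benjamini-Hochberg over the 13985 genes whose mean reached 0.5 FPKM). Fold thresholds were 1.3 for EGR1OV and 1.2 for H/R against Sham, those of the study, and 1.3 for EGR1OV against H/R. Scripts were tested on simulated data. Python 3.11.15 was used for tables and sequences. Histone genes, companion lists and markers were chosen with earlier results of these data known. Named were Egr1, Slbp, Npat, the 12 histone genes with the highest means, up to 10 called rises and falls per comparison, and up to 4 called genes per companion list, with exceptions stated. Alternatives covered the pseudocount, filter, scaling, fold threshold, trend, replicate block and each library left out. Voom on recovered reads and the genes with under 50% of windows shared were added after the data were seen.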

Additional observations from a re-analysis of the deposited data

How the results depend on the processing

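No called change of a named gene and no median over the histone genes changed sign under the alternatives run. Some changes that were not called did, such as that of Hist1h4m in H/R. The number of histone genes called in EGR1OV against Sham, 5, became 8 with a pseudocount of 0.1 (5 higher, 3 lower), 8 with no fold threshold, 2 at a mean of at least 5 FPKM, 1 at a 2-fold threshold and 2 among genes with under 50% of windows shared. It ranged from 3 (without the first Sham library) to 10 (without the second EGR1OV library) with 1 library left out. The count for H/R, 2, became 1 without the filter, with median-ratio scaling and with quantile normalization, 0 at 2-fold, and 1 to 3 with 1 library left out. The count against H/R, 12, became 4 at 5 FPKM, 1 at 2-fold, 6 among genes with under 50% shared, and 9 to 14 with 1 library left out. For most alternatives, here and in the comparisons above, the share of all genes called is not given. These counts therefore show how calls depend on the settings and not how histone genes stand against all genes.

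The median change in EGR1OV, 0.18, became 0.25 with a pseudocount of 0.1, 0.11 without the filter, 0.26 at 5 FPKM, 0.13 with quantile normalization, 0.26 with voom and 0.13 with under 50% shared, and 0.16 to 0.24 with 1 library left out. In H/R, -0.13 became -0.21, -0.079 without the filter, -0.10 with median-ratio scaling, -0.10 with quantile normalization and -0.23 with voom, and -0.14 to -0.10 with 1 library left out. Against H/R, 0.32 became 0.48, 0.16 without the filter, 0.52 at 5 FPKM, 0.28 with median-ratio scaling, 0.25 with quantile normalization, 0.50 with voom and 0.23 with under 50% shared, and 0.27 to 0.38 with 1 library left out. Except where fewer genes or libraries or a stricter fold were used, the cause was not tested. Medians over all genes under these alternatives are not given here.

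Libraries of different groups with the same number deviated together with correlations of -0.195 to 0.263. Those with different numbers gave -0.222 to 0.179, and the highest value was of equal numbers. The ranges overlapped and show no clear pairing, but so few libraries cannot exclude a shared batch or culture. With the replicate block 6, 2 and 11 histone genes were called, without the share of all genes beside them. Most histone genes had few reads, which limits the precision of their changes, and shared sequence limits which of the paralogs they belong to.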
